A study of Mus musculus with 6 samples.

Results

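The genes described here encode the vacuolar H+-ATPase (V-ATPase), the proton pump of lysosomes and phagosomes, and the proteins on the lysosome surface that tell the growth-controlling kinase complex mTORC1 whether amino acids are present. They were chosen by name: every protein-coding gene whose symbol starts with Atp6v0, Atp6v1 or Atp6ap, plus 24 named genes of mTORC1 amino acid sensing. This gave 50 genes of 54532 in the table, of which 26 belong to the V-ATPase by name and 24 to the sensing machinery.

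The V-ATPase is a rotary machine. Its cytosolic V1 sector splits ATP, and its membrane V0 sector uses that rotation to move protons into the lumen of lysosomes and phagosomes. In macrophages the acid it makes activates lysosomal proteases and belongs to the handling of an engulfed yeast. The pump also docks on the Ragulator complex, which holds the Rag GTPases at the lysosome. When amino acids are plentiful the Rags bring mTORC1 to the lysosome, where the small GTPase Rheb switches it on. The FLCN-FNIP complex promotes this recruitment, whereas GATOR1 and, upstream of it, the sestrins oppose it. The MiT/TFE transcription factors TFEB, TFE3 and MITF are held in check by mTORC1 and drive lysosomal genes, V-ATPase genes among them.

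RNA was sequenced from primary macrophages of METRNL-/- mice (KO) and METRNL+/+ mice (WT), 3 libraries each, all cultured and exposed to *Candida albicans*, an opportunistic yeast, in vitro for 6 h. *Metrnl* encodes meteorin-like, a secreted protein. Every library comes from challenged cells, so the comparison is between genotypes under infection and says nothing of what infection does. The labels give neither strain, age nor tissue site of the macrophages. Nor do they state if a replicate is its own animal or culture, so the spread behind each p-value is that of these libraries alone and may be technical.

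Libraries held from 11026529 to 15724897 reads in genes. *Metrnl* was listed at 51.2, 63.6 and 62.8 FPKM in KO libraries and at 93.5, 63.2 and 69.8 FPKM in WT libraries (FPKM: sequenced fragments scaled to gene length and library, so that genes can be compared by level). Its log2 difference was -0.33 ± 0.16 (SE; adjusted p = 0.181), so its RNA cannot serve as a test of the genotypes, and KO stands for libraries carrying that label. Replicate 1 stood apart from replicates 2 and 3 in both groups. The ratio of chi-square to degrees of freedom of the reads was 59.4 for each KO pair with replicate 1 and 2.30 for KO replicates 2 and 3, while the WT pairs with replicate 1 gave 42.2 and 39.6 and WT replicates 2 and 3 gave 7.10. The extraction text in the labels names retinas, while the other labels name macrophages. Of the retinal markers, *Gnat1*, *Rcvrn*, *Crx*, *Opn1mw* and *Nrl* were at or below 0.163 FPKM in every library, and *Crx* and *Opn1mw* were at 0 in KO. *Pde6b* had 1.17, 0.769 and 0.876 FPKM in KO and 0.558, 0.524 and 0.540 FPKM in WT, all KO above all WT (0.32 ± 0.11; adjusted p = 0.0664). Macrophage markers summed to 9445 to 10397 FPKM in KO and 5567 to 6541 FPKM in WT libraries, with 5 of 12 higher in KO and 1, *Fcgr1*, lower. The 11 B cell markers were all lower in KO, at a sum of 30.01 to 38.5 FPKM against 566 to 728 FPKM in WT. Of 8 dendritic cell markers 6 were also lower, at a sum of 42.8 to 55.3 FPKM in KO and 148 to 239 FPKM in WT. Lower, too, were 4 of 4 tested markers of T and NK cells, 4 of 4 of mast cells, 4 of 7 of mesothelial cells and fibroblasts and 3 of 8 of neutrophils, with none higher. Their sums were 3.19 to 4.07 FPKM in KO and 11.1 to 13.9 FPKM in WT for T and NK cells (*Klrb1c* was at 0 in KO), 0.99 to 1.39 and 6.51 to 8.08 FPKM for mast cells, 7.40 to 9.26 and 16.1 to 19.1 FPKM for mesothelial cells and fibroblasts, and 667 to 749 and 907 to 1211 FPKM for neutrophils. In such bulk libraries fewer cells of a type and less RNA per cell cannot be told apart, and the part of cell composition in the results below was not tested.

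Most of the expressed pump genes, the FLCN-FNIP complex, *Rheb*, part of the Ragulator-Rag scaffold and the factor genes *Mitf* and *Tfe3* were higher in KO libraries, by 1.17-fold to 2.67-fold, while *Tfeb* was lower. Of the 50 genes, 39 passed a filter of a mean of 0.5 FPKM over the 6 libraries. Of these, 23 were higher in KO, 1 was lower and 15 did not pass the threshold (limma on log2(FPKM + 1), Benjamini-Hochberg adjusted p below 0.05 over 11689 genes). The background is a broad one: 28.0% of all genes tested were called, 15.7% higher and 12.4% lower in KO. Among the 39 genes, which come from a set chosen with earlier results of these data known, 61.5% were called and 59.0% were higher. Their median log2 difference was 0.36, against 0.03 over all genes tested. In 27 of the 39 genes all KO libraries lay above all WT libraries, and in 3 all lay below; over all genes tested these shares were 25.7% and 19.9%.

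The number of calls depended on how libraries are put on one scale. All 23 higher genes kept a positive difference under every setting tried. When each library was scaled to the same sum (TPM), 6 of the 23 still passed (*Atp6v0d2*, *Atp6v1e1*, *Atp6v1g1*, *Lamtor3*, *Rheb* and *Rragc*), with 4.64% of all genes higher and 9.93% lower in KO. Higher genes made up 31.8% of all calls on that scale, 26.7% with scaling to summed reads and 55.9% on the deposited scale. Scaling to summed reads shifted the median of all genes by -0.11, to -0.08, and left 8 members higher, beside 5.33% of all genes. The library totals implied by the deposited FPKM were 0.866, 1.004 and 1.005 times the reads in genes in KO replicates 1 to 3. They were 1.121, 1.068 and 1.005 times those reads in WT replicates 1 to 3. A larger total gives smaller FPKM, so the deposited scale placed KO higher against WT than summed reads did. The reason for these unequal totals was not tested. Quantile normalization gave 14 higher members beside 14.5% of all genes, and 26 were higher by limma voom on reads, beside 17.1%. Without KO replicate 2, 14 members were higher (6 of them V-ATPase genes) beside 7.8% of all genes, and without KO replicate 3, 12 were (4 of them V-ATPase genes) beside 7.82%. Without both replicate 1 libraries 25 were higher, beside 19.3%. KO replicate 1 had the largest FPKM sum, 412048, against 334570 and 335015 in the other KO libraries and 311409 to 365689 in WT.

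**Figure D1:**
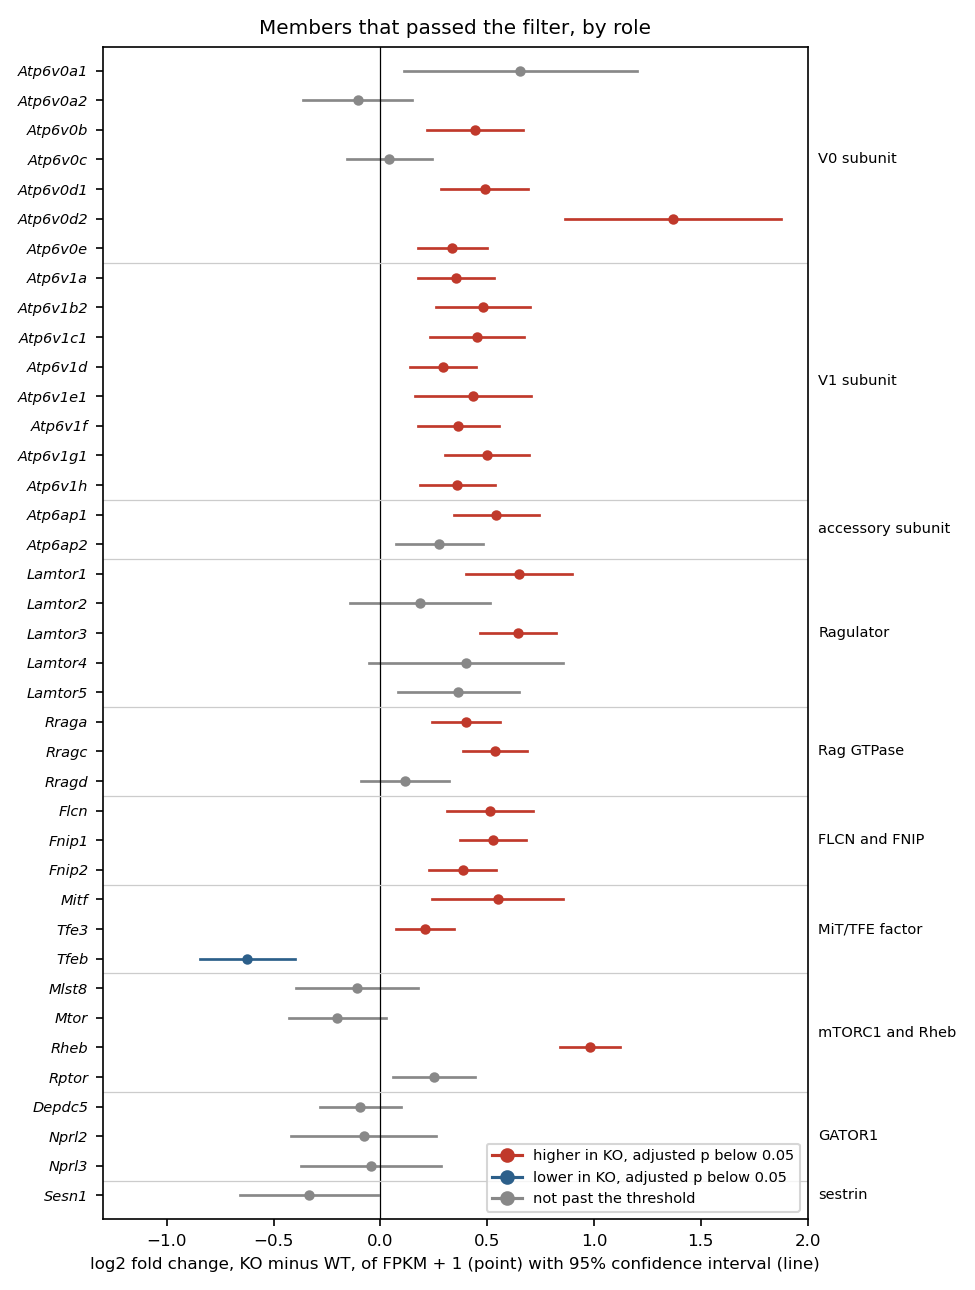
Log2 differences (KO minus WT, of log2(FPKM + 1)) of the 39 genes that passed the filter, as points with 95% confidence intervals, grouped by role; red marks genes higher in KO, blue lower, grey not past the threshold. *Atp6v0d2* (1.37) and *Rheb* (0.98) lie farthest to the right, *Tfeb* (-0.62) farthest to the left, and the 8 V1 subunits form a narrow band from 0.29 to 0.50.

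MiT/TFE factors bind the E-box CACGTG, in lysosomal genes often within the longer CLEAR element. Promoter windows from RefSeq on GRCm38.p6, running from 250 bases before to 50 bases after a start site, were on hand for 42 of the 50 genes. *Atp6v0d2*, *Atp6v0a2*, *Atp6v1b2*, *Atp6v1c1*, *Atp6v1g1*, *Atp6v1h*, *Atp6ap1l* and *Lamtor3* had none. The letters CACGTG, which read the same on both strands, were present for 10 of 42 genes (23.8%), against 8.09% of 27025 genes in the same table, which include genes not expressed here. Among genes that passed the expression filter and had a window, the shares were 28.1% of 32 members and 12.5% of all 8009. The form TCACGTGA, which contains the shorter one, was present for *Atp6v0d1*, *Atp6v0e* and *Atp6v1a*, against 1.12% of all genes. The full CLEAR palindrome, which adds a G before and a C after TCACGTGA, was in none of the 42 and in 0.370% of all genes. Of the 10 genes with CACGTG, 8 were higher in KO, among 17 higher genes with a window. Of the 14 genes with a window that passed the filter and were not called, 1 held it, *Lamtor4*; the tenth, *Rragb*, did not pass the filter. Among all higher genes with a window the share was 15.6%, among all lower genes 8.41%. These counts describe letters in a window and were not tested. The 6 stretches of 60 bases below are shown, on the strand of the gene and 5′ to 3′, because they hold the motif in genes that were higher in KO. Capitals mark the motif. The windows of *Rheb* and *Atp6v0e* hold it at -96 and at 3 from the start site and are not shown.
Atp6v0b, chr4:117887318-117887377, minus strand: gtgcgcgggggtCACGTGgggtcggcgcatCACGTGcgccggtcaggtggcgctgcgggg
Atp6v0d1, chr8:105566053-105566112, minus strand: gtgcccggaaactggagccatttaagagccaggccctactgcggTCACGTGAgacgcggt
Atp6v1a, chr16:44139358-44139417, minus strand: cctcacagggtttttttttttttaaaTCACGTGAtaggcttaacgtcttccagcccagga
Lamtor1, chr7:101905742-101905801, plus strand: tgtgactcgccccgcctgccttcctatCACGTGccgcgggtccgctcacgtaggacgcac
Rragc, chr4:123917294-123917353, plus strand: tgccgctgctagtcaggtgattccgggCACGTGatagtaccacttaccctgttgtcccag
Fnip1, chr11:54438077-54438136, plus strand: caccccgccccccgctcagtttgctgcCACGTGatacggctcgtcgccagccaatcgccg
The motif starts 112 bases before the start site in *Rragc*, 75 in *Fnip1*, 68 in *Lamtor1*, 132 in *Atp6v1a* and 4 in *Atp6v0d1*, and *Atp6v0b* carries it at 36 and at 18 bases before.

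Of the 9 genes named for V0, the proton channel in the membrane, 7 passed the filter and 4 were higher in KO. *Atp6v0d2*, on chromosome 4 from 19876841 to 19922605 (GRCm38), encodes the d subunit isoform that is abundant in osteoclasts and some macrophages. It had 41.2, 61.8 and 61.8 FPKM in KO libraries and 24.8, 16.2 and 20.8 FPKM in WT libraries. All KO libraries lay above all WT libraries, with KO replicate 1 the lowest and WT replicate 1 the highest of their groups. Its mean was 54.9 ± 11.9 FPKM in KO and 20.6 ± 4.30 FPKM in WT (SD, n = 3 each), a 2.67-fold ratio, and its log2 difference was 1.37 ± 0.21 (SE; adjusted p = 0.00601).

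The d subunit sits on the central rotor, and its general isoform *Atp6v0d1* had 170.4, 169 and 159 FPKM in KO and 123, 107 and 124 FPKM in WT. This is a 1.40-fold ratio with a log2 difference of 0.49 ± 0.08 (adjusted p = 0.00921). *Atp6v0d1* thus remained the more abundant d isoform in every library. Within a library, which removes the scale of that library, *Atp6v0d2* made up 19.5%, 26.8% and 28.0% of the summed d isoforms in KO and 16.7%, 13.1% and 14.3% in WT. The 2 groups did not overlap, and replicate 1 of each lay closest to the other group. With 3 libraries against 3 an exact permutation test of such a share cannot go below p = 0.10, so none is given for the within-library ratios here.

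The c-ring, which carries the protons, is built from the products of *Atp6v0c* and *Atp6v0b*. *Atp6v0b*, the c'' subunit, had 203, 179 and 182 FPKM in KO and 142, 125 and 146 FPKM in WT, with a log2 difference of 0.44 ± 0.09 (adjusted p = 0.0165). *Atp6v0c*, the main c subunit, had 67.2, 66.2 and 69.8 FPKM in KO and 69.1, 59.3 and 69.5 FPKM in WT. Its groups overlapped, and its difference of 0.04 ± 0.08 had an interval from -0.16 to 0.24 (adjusted p = 0.747), with a sign that turned negative under TPM (-0.04), quantile scaling (-0.12) and scaling to summed reads (-0.11). *Atp6v0c* has processed pseudogene copies that can share its reads, so its level is uncertain. The copy *Atp6v0c-ps2* was assigned 355 reads in KO and 271 in WT, against 9987 and 9054 for *Atp6v0c*. *Atp6v0e*, a small membrane subunit, had 59.3, 59.2 and 58.5 FPKM in KO and 47.3, 43.6 and 48.7 FPKM in WT, a log2 difference of 0.34 ± 0.07 (adjusted p = 0.0138) that lost its call without KO replicate 2 or KO replicate 3, as *Atp6v0b* did without KO replicate 3.

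The a subunit is the large V0 protein that sets where the pump resides, and mammals have several isoforms. *Atp6v0a1* had 26.5, 41.1 and 39.2 FPKM in KO and 28.6, 17.6 and 20.7 FPKM in WT. The groups overlapped only through the replicate 1 libraries, where KO was the lower, and the difference of 0.66 ± 0.23 did not pass (adjusted p = 0.0762). Without both replicate 1 libraries, a setting added after seeing the data, its limma adjusted p was 0.00282. On the TPM scale it was 0.237. *Atp6v0a1* also passed without KO replicate 1 or WT replicate 1 alone, and by limma voom on reads. *Atp6v0a2*, an isoform of the Golgi and endosomes, was low, at 3.10, 3.96 and 4.29 FPKM in KO and 4.16, 4.003 and 4.19 FPKM in WT (-0.11 ± 0.11; adjusted p = 0.499). The most abundant a isoform was the a3 gene *Tcirg1*, the isoform of lysosomes and of the osteoclast border, whose symbol keeps it outside the named set. It had 145, 162 and 161 FPKM in KO and 145, 112 and 127 FPKM in WT (0.29 ± 0.11; adjusted p = 0.104). *Tcirg1* supplied 78.2% to 83.1% of the summed a1, a2 and a3 FPKM in KO and 81.6% to 83.8% in WT, and *Atp6v0a2* 1.77% to 2.09% in KO and 2.34% to 2.99% in WT.

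**Figure D2:**
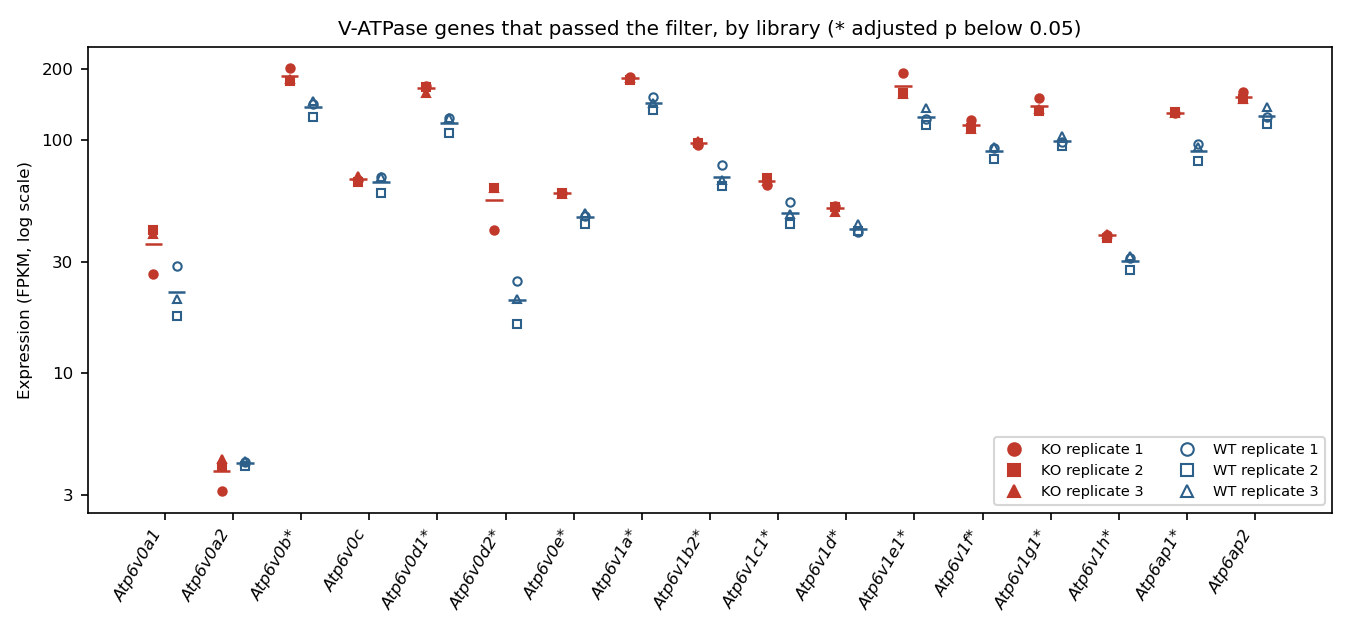
FPKM (log scale) of the 17 V-ATPase genes that passed the filter, one point per library with group means as lines, KO red and filled, WT blue and open; stars mark adjusted p below 0.05. The 8 V1 subunits and *Atp6ap1* show no overlap between KO and WT, whereas *Atp6v0c* and *Atp6v0a2* overlap and *Atp6v0a1* overlaps through replicate 1.

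All 8 expressed V1 subunit genes were higher in KO, by 1.23-fold to 1.42-fold, with adjusted p from 0.00743 to 0.0323, and the groups did not overlap for any of them. V1 is a ring of catalytic A and regulatory B subunits around a rotor of D and F, held by the peripheral stalks of E and G with C and H. *Atp6v1a*, the catalytic subunit, had 186, 181 and 184 FPKM in KO and 152, 134 and 144 FPKM in WT (0.35 ± 0.07; adjusted p = 0.0168). *Atp6v1b2*, the B subunit isoform of most tissues, had 94.99, 96.7 and 98.9 FPKM in KO and 78.0, 63.5 and 67.0 FPKM in WT (0.48 ± 0.09; adjusted p = 0.0119). In both genes the KO libraries lay closer together than the WT libraries.

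The stalk subunit gene *Atp6v1g1* had the largest V1 ratio, 1.42-fold, at 151, 133 and 135 FPKM in KO and 97.7, 94.1 and 104 FPKM in WT (0.50 ± 0.08; adjusted p = 0.00743). Its partner *Atp6v1e1* had 194, 158 and 158 FPKM in KO and 123, 116 and 136 FPKM in WT (0.43 ± 0.11; adjusted p = 0.0323). KO replicate 1 was the highest library in both stalk genes, the reverse of its place in *Atp6v0d2* and *Atp6v0a1*. *Atp6v1c1*, whose product is released and rebound when V1 detaches, had 64.0, 68.8 and 66.5 FPKM in KO and 53.9, 43.6 and 48.1 FPKM in WT (0.45 ± 0.09; adjusted p = 0.0149). *Atp6v1h*, a subunit needed for coupling, had 39.2, 37.8 and 39.6 FPKM in KO and 31.0, 27.6 and 31.7 FPKM in WT (0.36 ± 0.07; adjusted p = 0.0149).

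Both rotor genes were higher. *Atp6v1d* had 52.2, 51.6 and 49.0 FPKM in KO and 40.1, 40.7 and 43.4 FPKM in WT, the smallest V1 ratio at 1.23-fold (0.29 ± 0.06; adjusted p = 0.0195). *Atp6v1f* had 122, 113 and 111 FPKM in KO and 92.3, 82.8 and 92.7 FPKM in WT (0.36 ± 0.08; adjusted p = 0.0182). The calls of *Atp6v1a*, *Atp6v1c1*, *Atp6v1d*, *Atp6v1e1*, *Atp6v1f* and *Atp6v1h* were lost without KO replicate 2 or without KO replicate 3, and that of *Atp6v1b2* without KO replicate 3. *Atp6v1e1* lost its call without any 1 WT library as well, *Atp6v1d* without WT replicate 2, and *Atp6v1a* and *Atp6v1c1* without WT replicate 3, and on the TPM scale *Atp6v1e1* and *Atp6v1g1* alone of the 8 passed.

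Accessory proteins hold V0 together during assembly. *Atp6ap1*, on the X chromosome from 74297097 to 74304721, was the most uniform gene of the pump in KO, at 130.1, 131 and 131 FPKM, against 95.4, 80.8 and 93.1 FPKM in WT (1.46-fold; 0.54 ± 0.08; adjusted p = 0.00598). *Atp6ap2*, also known as the prorenin receptor, had 159.9, 149 and 149.5 FPKM in KO and 125, 117 and 137 FPKM in WT. Its groups did not overlap, but its difference of 0.28 ± 0.08 did not pass (adjusted p = 0.0553). *Atp6ap2* did pass with a filter of a mean of at least 2 FPKM. It also passed by limma voom on reads, a setting added after seeing the data, but not on the TPM scale (limma adjusted p = 0.289).

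Summed over the V-ATPase genes, expression was 1764, 1699.9 and 1698 FPKM in KO and 1328, 1175 and 1333 FPKM in WT. Of the 17 expressed pump genes 13 were higher and none was lower in KO (limma; none lower at an unadjusted p under 0.05 either, nor by limma voom on reads); on the TPM scale 3 were higher and none was lower. As a share of all FPKM in its library the sum was 0.428%, 0.507% and 0.507% in KO and 0.426%, 0.345% and 0.364% in WT, so that on this measure KO replicate 1 was level with WT replicate 1. Macrophage markers made up 2.52%, 2.84% and 2.82% of all FPKM in KO and 1.995%, 1.64% and 1.79% in WT. The pump sum divided by the marker sum was 0.1697, 0.179 and 0.180 in KO and 0.214, 0.211 and 0.204 in WT. By that ratio the KO libraries lay below the WT libraries. *Lyz2*, at 4197, 4528 and 4567 FPKM in KO and 2598, 1803 and 2211 FPKM in WT, was the largest term of the marker sum. It was itself 2.01-fold higher in KO, so the place of the groups in this ratio depends on that gene. The ratio is therefore no measure of pump RNA per macrophage.

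The tissue-restricted isoforms were near or at the limit of detection in both genotypes. *Atp6v0a4* and *Atp6v1b1*, isoforms of kidney and other acid-secreting epithelia, and *Atp6v1g3* had 0 reads in all 6 libraries. A count of 0 allows 3 reads per library, which is at most 0.0512 FPKM for *Atp6v0a4*, 0.0582 FPKM for *Atp6v1b1* and 0.135 FPKM for *Atp6v1g3*, counting error only. *Atp6v0e2* had 4 reads in all KO libraries together and 15 in WT, *Atp6v1c2* 5 in KO and 0 in WT, *Atp6v1e2* 3 and 4, and *Atp6ap1l* 4 and 3. *Atp6v1g2*, the neuronal G isoform, had 51 reads in KO and 25 in WT and overlaps *Nfkbil1*, which lies on the other strand and holds 1531 reads. *Atp6v1fnb*, with 3 reads in KO and 9 in WT, is a neighbour of *Atp6v1f* that the name rule takes in and is not known as a pump subunit. Pump RNA above the filter thus came from 1 isoform each of B, C, E and G, from 2 of d and, with *Tcirg1*, from 3 of a.

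On the lysosome surface the Ragulator pentamer anchors the Rags, and all 5 of its genes passed the filter. *Lamtor1*, the lipid-anchored subunit that wraps the others, had 18.7, 20.8 and 18.8 FPKM in KO and 13.7, 10.5 and 12.1 FPKM in WT (1.61-fold; 0.65 ± 0.10; adjusted p = 0.00673). *Lamtor3*, also known as the MEK partner MP1, had 48.1, 44.1 and 44.9 FPKM in KO and 30.5, 26.9 and 29.2 FPKM in WT (1.58-fold; 0.65 ± 0.07; adjusted p = 0.00211). For both genes the lowest KO library exceeded the highest WT library, and *Lamtor3* kept its call on the TPM scale.

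The other Ragulator subunits did not pass. *Lamtor2*, which pairs with *Lamtor3*, had 12.6, 12.7 and 12.5 FPKM in KO and 12.6, 8.65 and 12.003 FPKM in WT (0.19 ± 0.14; adjusted p = 0.355). *Lamtor4* had 10.5, 10.997 and 10.9 FPKM in KO and 10.97, 6.00 and 7.49 FPKM in WT (0.40 ± 0.19; adjusted p = 0.163). *Lamtor5* had 33.5, 32.3 and 33.0 FPKM in KO and 30.5, 23.3 and 22.8 FPKM in WT (0.36 ± 0.12; adjusted p = 0.0629). In all 3 the KO libraries were tightly grouped and WT replicate 1 was the highest WT library. Without both replicate 1 libraries, a setting added after seeing the data, *Lamtor4* (limma adjusted p = 0.0153) and *Lamtor5* (0.00477) passed. Both also passed without WT replicate 1 alone. On the TPM scale neither did (limma adjusted p = 0.397 and 0.334).

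The Rags work as pairs of A or B with C or D. *Rragc*, on chromosome 4 from 123917446 to 123936997, had 84.1, 78.6 and 79.9 FPKM in KO and 54.4, 55.4 and 56.7 FPKM in WT (1.46-fold; 0.54 ± 0.06; adjusted p = 0.00223). *Rraga* had 38.6, 38.4 and 38.0 FPKM in KO and 30.3, 29.1 and 27.1 FPKM in WT (1.33-fold; 0.40 ± 0.07; adjusted p = 0.00745). Both rose with gaps between the groups wider than the spread in either. Their alternatives were scarce: *Rragd* had 0.967, 1.19 and 1.10 FPKM in KO and 0.940, 0.870 and 0.958 FPKM in WT (0.12 ± 0.09; adjusted p = 0.364), and *Rragb* had 0 reads in KO and 4 in WT. Per length, *Rragc* exceeded *Rraga* by 2.049 to 2.18 times in KO and 1.79 to 2.09 times in WT libraries, ranges that overlap. RNA for the A and C forms thus made up nearly all Rag RNA in both genotypes.

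FLCN with FNIP1 or FNIP2 is the GTPase-activating complex for RagC and RagD, and all 3 genes rose. *Flcn* had 38.5, 37.3 and 37.8 FPKM in KO and 29.3, 25.6 and 24.1 FPKM in WT (1.44-fold; 0.51 ± 0.08; adjusted p = 0.0075). *Fnip1* had 37.5, 41.2 and 41.0 FPKM in KO and 27.8, 27.1 and 27.3 FPKM in WT (1.46-fold; 0.53 ± 0.06; adjusted p = 0.00273). *Fnip2* was the more abundant FNIP, with 87.5, 82.8 and 80.5 FPKM in KO and 62.4, 65.8 and 63.0 FPKM in WT (1.31-fold; 0.39 ± 0.07; adjusted p = 0.00846). No KO library overlapped a WT library in any of the 3, although none of the 3 passed on the TPM scale, where their differences stayed positive.

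The MiT/TFE factor genes moved in opposite directions. *Tfeb*, on chromosome 17 from 47737030 to 47792419, had 1.17, 1.37 and 1.37 FPKM in KO and 2.89, 2.34 and 2.44 FPKM in WT, from 324 reads in KO and 592 in WT. Every KO library was below every WT library, and WT was 1.96-fold higher (-0.62 ± 0.09; adjusted p = 0.00541). *Tfeb* was the 1 gene called lower of the 39 tested, of which 8 had a negative difference. It was also called lower on the TPM scale, but not with the replicate block. *Mitf* had 8.07, 8.50 and 8.16 FPKM in KO and 5.90, 4.19 and 6.05 FPKM in WT (1.53-fold; 0.55 ± 0.13; adjusted p = 0.0228), a call lost without KO replicate 2 or KO replicate 3. *Tfe3* had 10.7, 10.2 and 10.6 FPKM in KO and 8.96, 8.94 and 9.04 FPKM in WT (1.17-fold; 0.21 ± 0.06; adjusted p = 0.0386), the smallest ratio among the higher members. The call of *Tfe3* was lost when any 1 of the 6 libraries was left out.

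The remaining family member, *Tfec*, which is largely restricted to macrophages and related cells, had 10.5, 7.19 and 7.47 FPKM in KO and 7.28, 8.61 and 9.50 FPKM in WT (-0.02 ± 0.16; adjusted p = 0.935). Of the 4 family members summed within a library, *Tfeb* made up 3.85%, 5.04% and 4.94% in KO and 11.6%, 9.71% and 9.02% in WT. *Mitf* made up 26.5%, 31.1% and 29.5% in KO and 23.6%, 17.4% and 22.4% in WT. The shares of these 2 genes did not overlap between the groups, whereas *Tfe3* (35.1% to 38.5% in KO, 33.5% to 37.1% in WT) and *Tfec* (26.4% to 34.5% in KO, 29.1% to 35.7% in WT) did. By level, *Tfeb* was the scarcest of the 4 in all 6 libraries. The B cell and dendritic cell markers given above were lower in the same KO libraries as *Tfeb*, and their part in its fall was not tested.

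**Figure D3:**
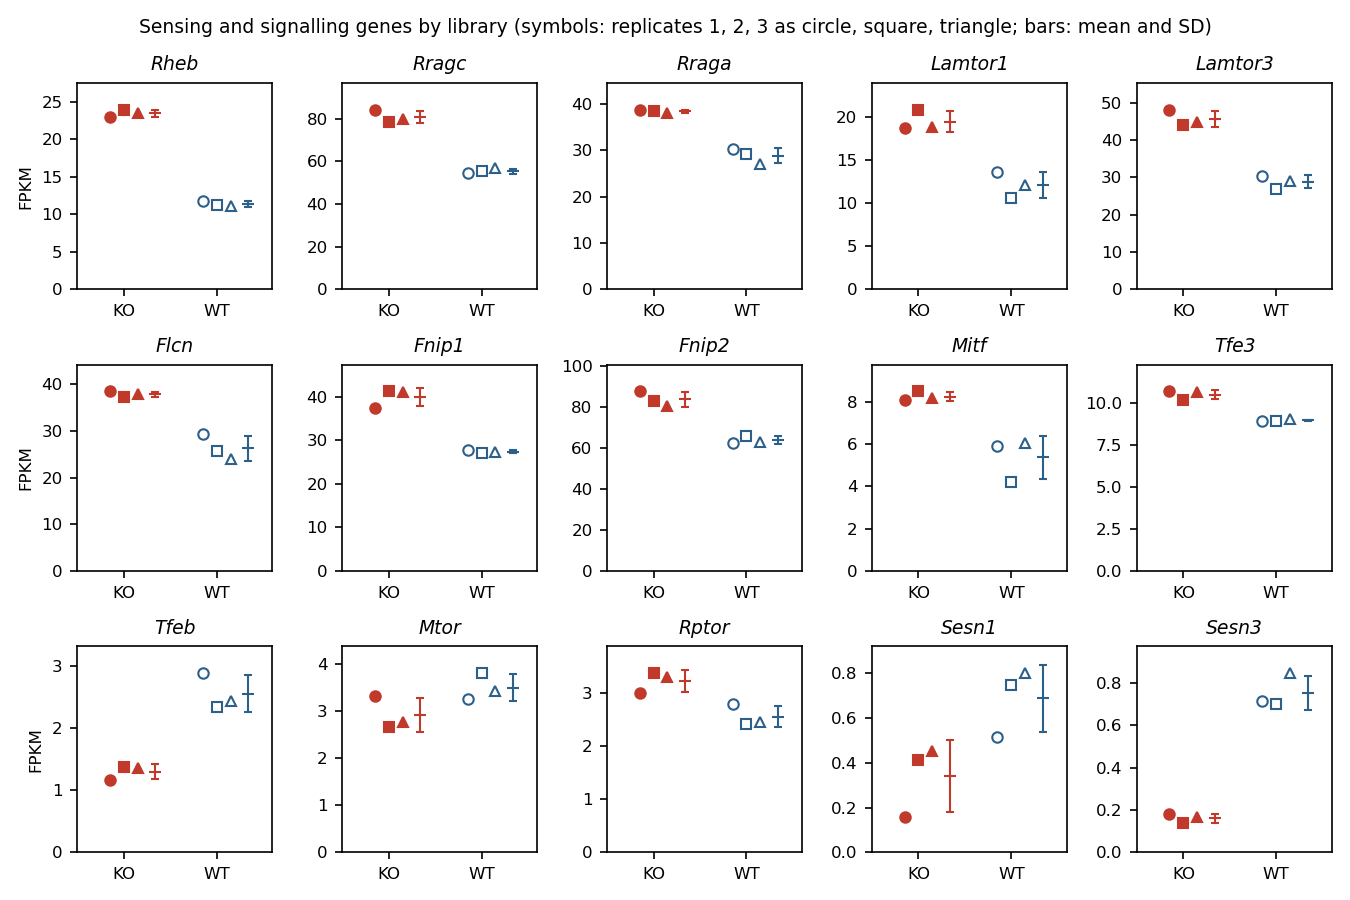
FPKM by library of 15 sensing and signalling genes, KO left in red and WT right in blue, with bars for mean ± SD (n = 3); each panel has its own axis from 0. *Rheb* lies at 23.0 to 23.9 FPKM in KO and 11.1 to 11.8 FPKM in WT, while *Tfeb*, *Sesn1* and *Sesn3* lie lower in KO and *Mtor* overlaps.

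*Rheb*, the GTPase that activates mTORC1, had the smallest adjusted p of the 39 genes. The gene lies on chromosome 5 from 24802823 to 24842624, minus strand. It had 23.0, 23.9 and 23.5 FPKM in KO and 11.8, 11.2 and 11.1 FPKM in WT. Means were 23.5 ± 0.450 FPKM in KO and 11.4 ± 0.366 FPKM in WT (SD, n = 3 each), a 2.06-fold ratio (0.98 ± 0.06, 95% interval 0.84 to 1.12; adjusted p = 0.000218). It passed on the TPM scale too (adjusted p = 0.00485).

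No gene of the kinase complex itself passed with all libraries, by limma on log2(FPKM + 1) without further scaling. *Mtor*, the kinase, had 3.32, 2.66 and 2.76 FPKM in KO and 3.26, 3.81 and 3.41 FPKM in WT (-0.20 ± 0.09, 95% interval -0.43 to 0.03; adjusted p = 0.162). *Rptor*, which encodes the scaffold raptor that binds the Rags, had 3.0, 3.38 and 3.31 FPKM in KO and 2.79, 2.43 and 2.46 FPKM in WT (0.25 ± 0.08; adjusted p = 0.0587). The groups of *Rptor* did not overlap. It passed without both replicate 1 libraries, a setting added after seeing the data (limma adjusted p = 0.0332), but not on the TPM scale (0.437). *Rptor* also passed under quantile normalization, and by limma voom on reads, which was added after seeing the data too. *Mlst8*, a small subunit, had 0.743, 1.17 and 1.09 FPKM in KO and 1.33, 1.01 and 1.12 FPKM in WT (-0.11 ± 0.12; adjusted p = 0.536). The *Rheb* to *Mtor* ratio within a library was 6.92, 8.998 and 8.51 in KO and 3.62, 2.95 and 3.26 in WT, and that of *Rheb* to *Rptor* was 7.67, 7.07 and 7.08 in KO and 4.23, 4.63 and 4.53 in WT.

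**Figure D4:**
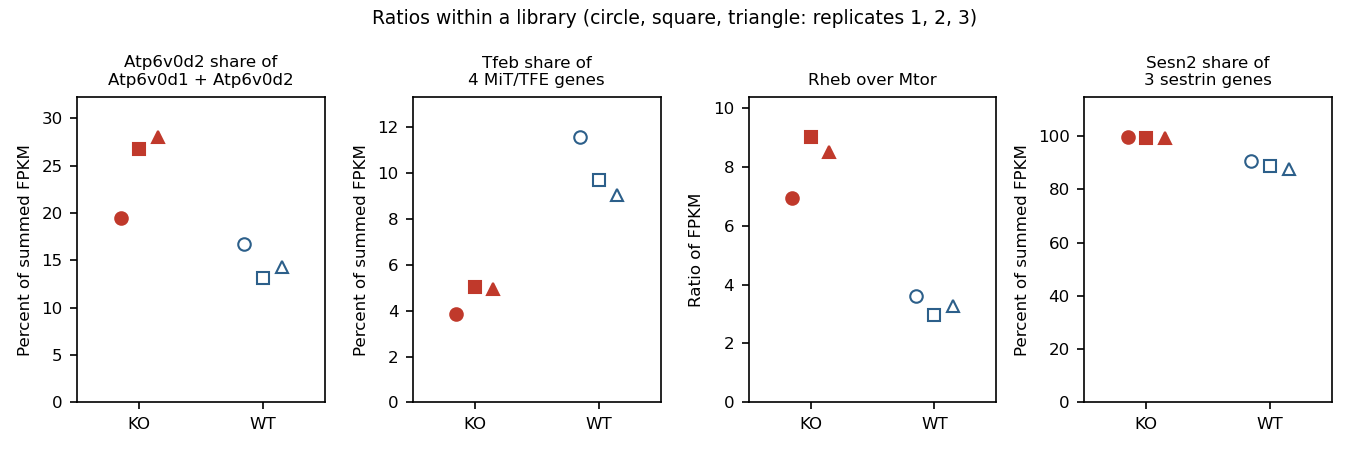
Ratios formed within each library, KO left in red and WT right in blue, with circle, square and triangle for replicates 1, 2 and 3. The *Atp6v0d2* share of the d isoforms, the *Rheb* to *Mtor* ratio and the *Sesn2* share of the sestrins lie higher in every KO library, and the *Tfeb* share of the MiT/TFE genes lies lower.

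On the inhibitory side, none of the 3 GATOR1 genes was called (limma; none at an unadjusted p under 0.05, under any setting tried). GATOR1 is the GTPase-activating complex for RagA and RagB. *Depdc5* had 1.29, 1.13 and 1.18 FPKM in KO and 1.298, 1.33 and 1.41 FPKM in WT (-0.09 ± 0.08; adjusted p = 0.419). *Nprl2* had 3.11, 2.80 and 1.89 FPKM in KO and 2.97, 2.62 and 2.70 FPKM in WT (-0.08 ± 0.14; adjusted p = 0.716). *Nprl3* had 0.547, 0.787 and 0.582 FPKM in KO and 0.733, 0.920 and 0.443 FPKM in WT (-0.05 ± 0.14; adjusted p = 0.836). All KO libraries of *Depdc5* lay below all WT libraries, by a narrow margin, while the other 2 overlapped, and the sign of all 3 turned positive under quantile scaling. *Nprl3* overlaps *Mpg* on the other strand, and whether counting used strand is not given in the sources used here.

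Sestrins bind GATOR2 and so oppose the activation of mTORC1. *Sesn1* had 0.157, 0.414 and 0.452 FPKM in KO and 0.517, 0.747 and 0.803 FPKM in WT, from 61 reads in KO and 108 in WT (-0.34 ± 0.13; adjusted p = 0.111). *Sesn3*, on chromosome 9, had 0.179, 0.137 and 0.166 FPKM in KO and 0.715, 0.701 and 0.848 FPKM in WT, from 106 reads in KO and 463 in WT. Its KO and WT ranges were far apart, and WT was 4.69-fold higher. *Sesn3* did not reach the filter, and when all genes with any value were tested it was lower in KO (adjusted p = 0.0143), as were 4.17% of those genes. The third sestrin, *Sesn2*, which is outside the named set and is induced by stress signalling, went the other way, with 69.0, 62.1 and 63.1 FPKM in KO and 11.8, 11.4 and 11.7 FPKM in WT (5.57-fold; 2.38 ± 0.07; adjusted p = 2.22e-05). *Sesn2* supplied 99.0% to 99.5% of sestrin FPKM in KO and 87.6% to 90.5% in WT, and *Sesn3* 0.219% to 0.261% in KO and 5.47% to 6.35% in WT.

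Genes around the pump and the pathway varied by list. The lists were chosen with earlier results of these data known, so their shares are no independent test. Over all genes tested 28.0% were called, 15.7% higher and 12.4% lower in KO. The share called was 36.4% for V-ATPase assembly and partners and 56.2% for lysosomal channels and transporters. It was 21.4% for GATOR2, KICSTOR and the amino acid sensors, 36.4% for the TSC complex, AKT and other mTOR partners, and 33.3% for mTORC1 substrates. Of 11 tested genes of V-ATPase assembly and partners 3 were higher and 1 was lower (0 and 1 on the TPM scale), with a median log2 difference of 0.12. *Vma21*, a V0 assembly factor of the endoplasmic reticulum, had 8.07, 8.75 and 7.29 FPKM in KO and 5.41, 5.57 and 5.64 FPKM in WT (0.46 ± 0.08; adjusted p = 0.00852). *Rogdi*, a subunit of the rabconnectin complex that helps reassemble V1 with V0, had 1.27, 1.49 and 1.28 FPKM in KO and 4.66, 5.47 and 5.35 FPKM in WT, 3.84-fold higher in WT (-1.39 ± 0.09; adjusted p = 0.000245). These 2 assembly genes thus moved in opposite directions.

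Lysosomal channels and transporters had 9 of 16 tested genes higher, none lower (limma; none at an unadjusted p under 0.05, and none by limma voom on reads) and a median of 0.38; on the TPM scale 3 were higher and none was lower. *Tpcn2*, a cation channel of endolysosomes, had 22.2, 25.6 and 24.1 FPKM in KO and 12.8, 11.99 and 10.8 FPKM in WT (2.01-fold; 0.95 ± 0.09; adjusted p = 0.001). *Slc36a4*, an amino acid transporter, had 16.5, 16.4 and 15.4 FPKM in KO and 9.90, 9.74 and 9.03 FPKM in WT (1.69-fold; 0.70 ± 0.07; adjusted p = 0.00113). For both, KO and WT libraries were well separated.

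GATOR2, KICSTOR and the amino acid sensors gave 3 higher and 0 lower genes of 14 tested by limma, with a median of -0.02. None of the 14 was lower at an unadjusted p under 0.05 either. On the TPM scale 2 were higher and 0 lower. Limma voom on reads called 0 lower, with 1 lower at an unadjusted p under 0.05. *Sesn2*, above, had the smallest p, followed by *Lars*, the leucyl-tRNA synthetase that also senses leucine, with 10.4, 11.4 and 9.64 FPKM in KO and 5.35, 7.14 and 6.11 FPKM in WT (0.68 ± 0.11; adjusted p = 0.00754). The TSC complex, AKT and other mTOR partners gave 2 higher and 2 lower of 11 tested (0 and 2 on the TPM scale), with a median of -0.0013. *Prr5*, an mTORC2 subunit, had 0.0408, 0.0661 and 0.174 FPKM in KO and 1.14, 0.9747 and 1.21 FPKM in WT (-0.95 ± 0.10; adjusted p = 0.00182), from 8 reads in KO and 86 in WT. *Tti1*, a cochaperone that helps assemble mTOR complexes, had 1.82, 2.04 and 1.92 FPKM in KO and 3.22, 3.39 and 3.04 FPKM in WT (-0.53 ± 0.07; adjusted p = 0.00446). Of 9 tested mTORC1 substrates 2 were higher and 1 was lower (1 and 0 on the TPM scale), with a median of -0.11. *Eif4ebp1*, the translation repressor 4E-BP1, had 85.5, 85.5 and 88.5 FPKM in KO and 53.0, 46.8 and 50.4 FPKM in WT (1.73-fold; 0.78 ± 0.07; adjusted p = 0.000972). *Atg13*, an autophagy initiation gene, had 13.5, 17.2 and 16.4 FPKM in KO and 10.6, 9.04 and 9.27 FPKM in WT (1.63-fold; 0.65 ± 0.11; adjusted p = 0.00769). All of these are RNA levels, and neither mTORC1 activity nor lysosomal pH was measured in these files.

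The osteoclast markers *Acp5* and *Ctsk*, genes for a lysosomal phosphatase and a lysosomal protease that macrophages can also express, were higher in KO beside *Atp6v0d2*. *Ctsk* had 54.5, 56.0 and 57.8 FPKM in KO and 32.3, 30.2 and 36.1 FPKM in WT. *Calcr*, the calcitonin receptor that marks mature osteoclasts, was at or below 0.120 FPKM in every library. The 6 osteoclast markers summed to 136 to 163 FPKM in KO and 88.3 to 99.1 FPKM in WT, with 2 of the 4 tested higher. The other 2 were not called, and 1 of the 4 had a negative difference (-0.34).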

How the data were processed

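The authors deposited 1 table of FPKM values per gene and library, with gene coordinates and lengths. Per the submitters' processing notes the build is GRCm38 (mm10). Which aligner, counter and annotation release were used, and whether strand was, is not stated in the labels or the table. Per the labels' protocols, Trizol served for RNA extraction and an Illumina TruSeq kit for library construction. In each library all products of FPKM and gene length were whole multiples of a single step, to within 0.05 of it, and these multiples were taken as reads for depth, low genes and an added test.

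The 11689 genes whose mean over the 6 libraries reached 0.5 FPKM were tested as log2(FPKM + 1) with limma 3.58.1 in R 4.3.3, genotype alone, eBayes with intensity trend, two-sided, Benjamini-Hochberg over all genes tested; an adjusted p below 0.05 was called. Log2 differences are KO minus WT and understate changes of low genes; folds are ratios of mean FPKM. Floors are 3 reads per library, and intervals are 95%. Calculations were tested on simulated data. Groups and replicate numbers came from the sample titles. The 50 members, the pathway lists and the marker lists were chosen with earlier results of these data known. Named genes were all members, *Metrnl*, *Sesn2*, *Tcirg1*, *Tfec* and, from each pathway list, the 2 called genes with the smallest p. *Lyz2*, *Fcgr1*, *Acp5*, *Ctsk*, *Calcr*, *Atp6v0c-ps2*, the retinal markers and the overlapping genes were named after their values were seen. Promoter sequences are from RefSeq on GRCm38.p6. Alternatives covered pseudocounts, filters, scalings, the intensity trend, the replicate block and leaving out libraries.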

Additional observations from a re-analysis of the deposited data

How the results depend on the processing

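Of the single-gene results repeated under alternatives, 760 kept their direction and side of the threshold, 103 kept the direction and no longer passed, 15 newly passed and 16 changed sign. With all libraries 3278 genes were called, and 23 members (13 V-ATPase, 10 sensing) were higher and 1 was lower. On the TPM scale 1703 genes were called and 6 members (3 and 3) were higher. Quantile normalization gave 14 higher members, 6 of them V-ATPase genes, and scaling to summed reads, added after seeing the data, gave 8 (4 and 4). Leaving out 1 library gave 1763 to 3018 genes called, 12 to 24 higher members, 4 to 14 V-ATPase and 8 to 11 sensing genes. Members lower were 2 without a filter, where *Sesn3* entered, and 0 with a mean of at least 2 FPKM (limma), where *Tfeb* and *Sesn3* were not tested; none had an unadjusted p under 0.05 there. Other settings added after seeing the data left counts close: 25 higher members without both replicate 1 libraries and 26 by limma voom on recovered reads.

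The replicate numbers did not pair the libraries: deviations of same-numbered libraries correlated at -0.505, -0.191 and -0.158. With the replicate block limma called 1083 genes and 5 higher members, all sensing genes (*Flcn*, *Fnip1*, *Lamtor3*, *Rheb* and *Rragc*), 0 V-ATPase genes (13 at an unadjusted p under 0.05) and 0 lower members (2 unadjusted).

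Signs changed among genes that were not called. *Atp6v0c* was -0.0421 under TPM, -0.1191 under quantile normalization, -0.1099 with summed reads and -0.0319 to 0.0802 with 1 library left out (negative without WT replicate 2). Under quantile normalization *Mlst8* was 0.0168, *Depdc5* 0.0275, *Nprl2* 0.0085 and *Nprl3* 0.1012. Without both replicate 1 libraries *Atp6v0a2* was 0.006, *Mlst8* 0.0458 and *Nprl3* 0.0142. With 1 library left out *Nprl2* ranged from -0.1821 to 0.0715 (positive without KO replicate 3), *Nprl3* from -0.1577 to 0.0481 (positive without WT replicate 2) and *Tfec* from -0.1773 to 0.0688 (positive without KO replicate 2, KO replicate 3 or WT replicate 3). The cause of these changes was not tested. The planned edgeR and DESeq2 fits were not run. The deposited unit is FPKM, and limma voom on recovered reads was run in their place. Depth limits *Sesn1*, *Prr5* and the isoforms with few reads.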
